A study of Homo sapiens with 18 samples.

Results

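Expression of 48 genes of the amino acid stress response was described in 3 lines of macrophage-like THP-1 cells kept in 2 media. The genes were chosen by symbol, and the 48 symbols matched 48 of the 60623 rows of the deposited count table. They comprised 7 transcription factors, 7 stress effectors and feedback genes, 4 genes of serine and asparagine synthesis, 8 other enzymes of amino acid and one-carbon metabolism, 9 amino acid transporters, and 13 genes of tRNA charging and export (12 cytosolic aminoacyl-tRNA synthetases and the tRNA exporter XPOT). All 48 passed the filter on low counts that left 17851 genes for testing.

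THP-1 is an established human monocytic leukaemia line. The control derivative held an empty vector (EV). Another (S5) was made to express Siglec-5, a sialic acid-binding receptor with an inhibitory tail, and the last (S14) Siglec-14, a close relative that signals through an activating adaptor. Cells of every group were first driven towards macrophages with the phorbol ester PMA at 100 nM for 24 h. They were then kept for 48 h in mock medium or with 50% of medium taken from SW620, a colorectal cancer cell line (conditioned medium, CM). The sources used here give neither the promoter of the constructs nor whether a line was 1 clone. Each of the 6 groups held 3 libraries, and the labels do not say whether these were separate cultures. The p-values therefore reflect the variation among these libraries only, and that variation may be technical.

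Cells that lack an amino acid, or that meet other stresses, phosphorylate the translation factor eIF2, which lowers general translation and raises translation of the transcription factor ATF4. ATF4 pairs with C/EBP family proteins and turns on genes that make amino acids, carry them into the cell and join them to tRNA, as well as DDIT3 (CHOP), TRIB3 and CHAC1. In macrophages the same factors also respond to inflammatory and endoplasmic reticulum stress, and ATF3 and CEBPB are in addition induced by signalling that does not pass through ATF4.

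Library totals ran from 15.0 to 26.05 M counts. Replicate 3 stood apart from replicates 1 and 2 in every group, on the second principal component (23.6% of the variance), whereas the S14 line stood apart on the first (43.3%). The share of counts on the 13 mitochondrially encoded mRNAs was 3.97% to 4.52% in replicate 3 and 1.49% to 3.60% in replicates 1 and 2. SIGLEC14 was at 503 to 926 CPM (counts per 1 M after TMM scaling) in the S14 libraries. It was at 29.5 to 44.1 CPM in the S5 libraries and at 13.0 to 22.7 CPM in the EV libraries. SIGLEC5 was at 0.169 to 1.15 CPM in all 18 libraries, S5 included, so the count of that gene does not tell the libraries labelled S5 from the others. Reads of such similar genes may be assigned with error. The S5 libraries differed from the EV libraries in SIGLEC14 without overlap, and the source of that difference was not tested. Directions involving S5 rest on the label. Summed macrophage markers (12 genes) lay between 6817 and 8931 CPM, with S14 conditioned medium the lowest group (6817 to 7014 CPM). Single markers went both ways between lines. Mean LYZ, CYBB, FCER1G and CD14 were 105, 219, 267 and 206 CPM in S14 mock and 524, 929, 792 and 615 in EV mock. Mean CSF1R and LAPTM5 were 2136 and 2734 CPM in S14 mock and 1674 and 2230 in EV mock. Of the same list, CD68 lay between 0.525 and 1.62 CPM and MRC1 between 0 and 1.72 CPM over all 18 libraries. Of 13 colorectal epithelial markers, EPCAM, KRT19, KRT20 and CEACAM5 had no counts in any group, and the list summed to 7.20 to 24.2 CPM. Only CLDN7 of that list reached a mean of 1 CPM in any group, and it lay between 6.96 and 23.7 CPM. In bulk RNA, fewer cells of a type and less RNA per cell cannot be told apart.

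In conditioned medium the S14 line expressed the amino acid stress response above the EV line across all 6 role lists. All 48 estimates were higher in S14, with a median log2 fold change of 1.06 against −0.02 over all genes tested, and 23 of the 48 rose at an adjusted p under 0.05 (edgeR quasi-likelihood test) where 11.1% of all genes were called (7.44% higher). No member fell, where 3.70% of all genes did. In mock medium the picture was narrower. There, 6 of 48 rose (ATF3, ATF5, DDIT3, CEBPB, PPP1R15A and WARS1) and none fell, fewer than the 20.0% called among all genes (11.1% higher, 8.96% lower), and the median over the members was 0.06. Of these 6, 5 were also called in conditioned medium, the exception being ATF5.

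The rise in conditioned medium was unevenly carried by the 3 S14 libraries. Replicates 1 and 2 lay above all 3 EV libraries of that medium for 46 of the 48 members each, and replicate 3 for 22. Over all genes these shares were 33.8%, 34.1% and 33.5%. Within a replicate number, the median log2 difference between S14 and EV over the 48 members was 1.48, 1.20 and 0.24 for replicates 1, 2 and 3. Without replicate 3 of S14 conditioned medium 40 members were called, whereas 11 and 10 were called without its replicates 1 and 2. The count was 9, 14 and 13 without EV conditioned medium replicates 1, 2 and 3. The count over all genes shifted as well, from 1164 without EV conditioned medium replicate 1 to 2114 without S14 conditioned medium replicate 3. ATF3, CEBPB, DDIT3, PPP1R15A, SESN2, SLC3A2, WARS1, GARS1 and SARS1 stayed called under each of these omissions. With replicates 1 and 2 alone, 47 members were called in conditioned medium and 31 in mock medium, where 43.9% and 55.6% of all genes were. Of these, 46 rose and 1 fell in conditioned medium, and 23 rose and 8 fell in mock medium (TRIB3, CHAC1, PHGDH, PSAT1, PSPH, CBS, GPT2 and SLC43A1). The mitochondrial share was 3.11%, 2.88% and 4.51% in the 3 S14 libraries of conditioned medium; its part in the result was not tested.

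**Figure D1:**
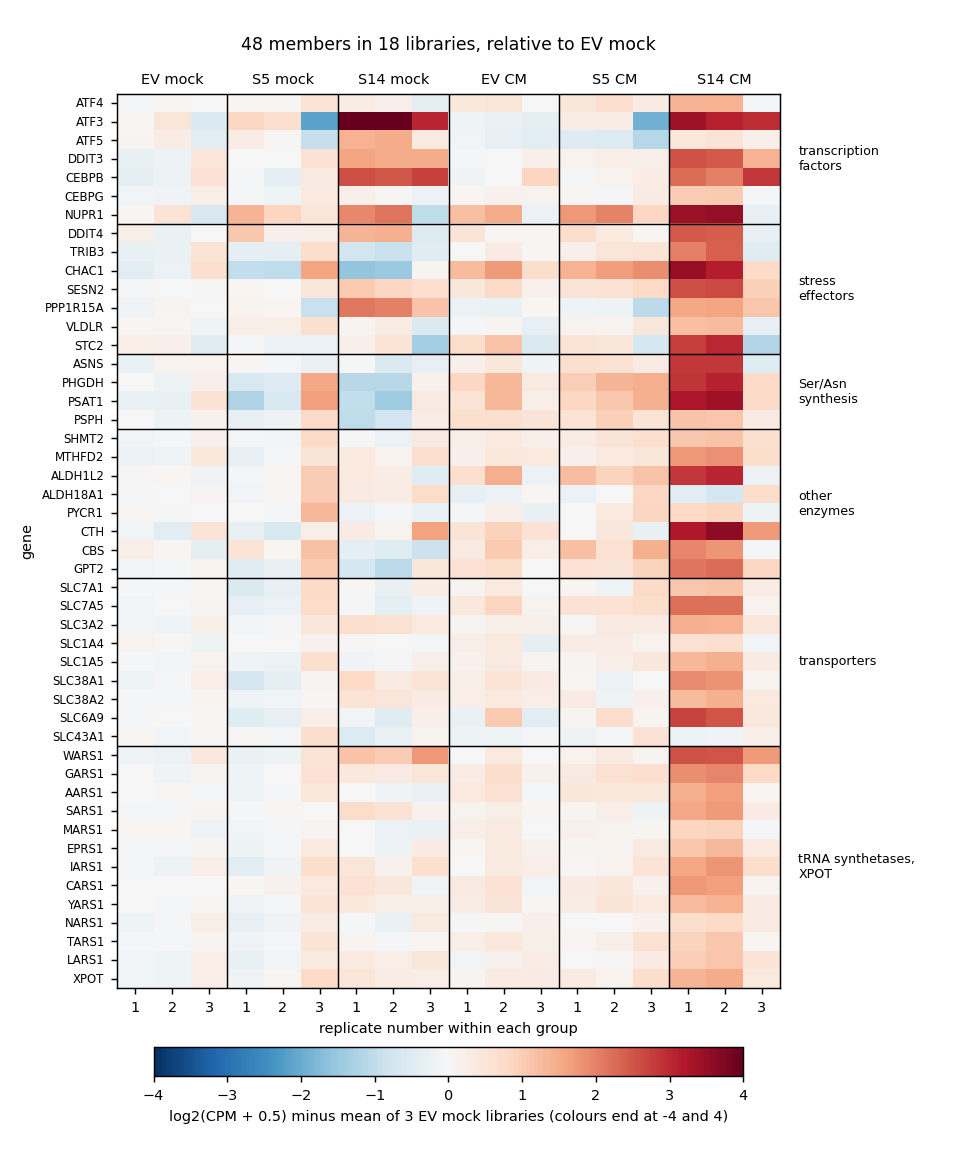
Expression of the 48 members (rows, by role) in 18 libraries (columns, 3 replicates in each of 6 groups), as log2(CPM + 0.5) minus the mean of the 3 EV mock libraries, with colours ending at −4 and 4. The first 2 S14 CM libraries are high in nearly every row, the third is close to the EV libraries for most rows, and ATF3, CEBPB and PPP1R15A are high in all 6 S14 libraries.

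Because ATF4 and C/EBP proteins bind a composite element, the promoters of the members were searched for TGATGNAAN on both strands, from 250 bases before to 50 after each start (RefSeq, GRCh38.p14). Windows were held for 40 of the 48 members. The motif was found for 16 members, in 16 of their 64 windows (25.0%), compared with 3.61% of all 35116 windows. It was present for 7 of 11 synthetase and export genes, 5 of 9 transporters, 2 of 6 transcription factors, 1 of 7 stress effectors, 1 of 3 serine and asparagine genes and 0 of 4 other enzymes. None of the 9 other cytosolic synthetase genes with a window held it. The matches are shown for the 7 synthetases, the role with most matches, and for 5 members of other roles, called and not called, so that the spellings can be compared; capitals mark the motif, read 5′ to 3′ on the strand that carries it, with 10 flanking bases.
AARS1 (chr16:70289676-70289704, plus strand): ctaacttggcTGATGCAACtgcgagaaaa
CARS1 (chr11:3057408-3057436, plus strand): tcctagaatcTGATGCAACcgccgccccg
GARS1 (chr7:30594834-30594862, minus strand): gctcggagcaTGATGAAATcgccgcgtaa
IARS1 (chr9:92293693-92293721, plus strand): cgcacggaggTGATGCAACgcgctgaaaa
MARS1 (chr12:57488053-57488081, minus strand): aatccctcgcTGATGCAACcggaaccggc
NARS1 (chr18:57621804-57621832, minus strand): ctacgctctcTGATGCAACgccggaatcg
TARS1 (chr5:33440956-33440984, minus strand): ctggaccagcTGATGCAATcgaaaggcgc
SLC1A5 (chr19:46784893-46784921, minus strand): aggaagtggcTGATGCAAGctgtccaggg
SLC38A1 (chr12:46266502-46266530, minus strand): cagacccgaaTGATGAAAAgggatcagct
ATF3 (chr1:212565206-212565234, plus strand): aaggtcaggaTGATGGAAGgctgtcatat
CEBPG (chr19:33374061-33374089, plus strand): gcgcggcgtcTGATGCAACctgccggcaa
CHAC1 (chr15:40953251-40953279, minus strand): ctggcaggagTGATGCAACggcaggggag
The spelling TGATGCAAC made up 7 of the 16 matches. The promoter of ASNS, asparagine synthetase, is a textbook case of this element and is shown for the 250 bases before its start on the minus strand, with the motif in capitals.
ASNS (chr7:97872409-97872658, minus strand): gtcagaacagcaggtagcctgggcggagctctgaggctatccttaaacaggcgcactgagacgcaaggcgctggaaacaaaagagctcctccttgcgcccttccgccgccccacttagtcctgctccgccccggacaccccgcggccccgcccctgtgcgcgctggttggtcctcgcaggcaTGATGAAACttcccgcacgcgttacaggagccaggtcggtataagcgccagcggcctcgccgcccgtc
A match is a description of letters only. Of the 16 members with a match, 8 were called in S14 against EV in conditioned medium, and of the 24 with a window but no match, 13 were.

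Among the transcription factors, ATF3, DDIT3 and CEBPB rose in the S14 line in both media, and ATF4 itself did not pass the test in either. The values of a group are given throughout in the order of replicates 1, 2 and 3. ATF3, a stress-induced repressor and activator, was at 46.6, 61.1 and 29.4 CPM in EV mock and at 988, 889.7 and 369 CPM in S14 mock. ATF3 stood in conditioned medium at 38.5, 36.7 and 33.0 CPM in EV and at 464, 385 and 346 CPM in S14. The S14 libraries lay above all EV libraries in both media, by a log2 fold change of 4.03 ± 0.69 (adjusted p = 8.47e-04) in mock and 3.47 ± 0.68 (adjusted p = 0.00333) in conditioned medium. In S5 it was at 78.8, 70.3 and 9.58 CPM in mock and 53.7, 54.1 and 11.2 CPM in conditioned medium, with the third library the lowest in each.

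DDIT3, the pro-apoptotic factor CHOP, was at 20.7, 22.5 and 36.3 CPM in EV mock, 25.9, 26.0 and 38.8 in S5 mock and 77.8, 73.6 and 73.1 in S14 mock. In conditioned medium it was at 24.7, 25.5 and 29.5 CPM in EV, 28.2, 31.0 and 30.3 in S5 and 153, 144 and 68.3 in S14. All 6 S14 libraries exceeded the EV and S5 libraries of their medium, and the third S14 library in conditioned medium was close to the S14 libraries of mock medium. The log2 fold change over EV was 1.49 ± 0.27 in mock (adjusted p = 0.00118) and 2.19 ± 0.27 in conditioned medium (adjusted p = 9.84e-05). DDIT3 overlaps MARS1 on the opposite strand by 355 exonic bases, and whether counting used strand is unknown.

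CEBPB, a C/EBP factor of myeloid differentiation and inflammation, was at 20.8, 23.4 and 40.5 CPM in EV mock and 163, 153 and 182 in S14 mock. CEBPB stood in conditioned medium at 24.7, 26.5 and 49.3 CPM in EV and 129, 111 and 195 in S14. It was the member with the smallest adjusted p in mock medium (6.16e-05, log2 fold change 2.55 ± 0.32), and the third S14 library was the highest of the group in both media. ATF5, a factor related to ATF4, was called in mock medium only (1.13 ± 0.32, adjusted p = 0.0197); in conditioned medium its estimate was 0.68 ± 0.31 (adjusted p = 0.200, and 0.0116 with the replicate number as a block). Whether these 2 estimates differ was tested as a difference in medium response, which called no member.

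ATF4, the central activator, was at 415, 444 and 416 CPM in EV mock, 436, 435 and 623 in S5 mock and 523, 487 and 326 in S14 mock. In conditioned medium it was at 568, 596 and 419 CPM in EV, 586, 678 and 529.6 in S5 and 1081, 1104 and 402 in S14. The first and second S14 libraries of conditioned medium were the highest of all 18, whereas the third lay below every EV library of that medium. The estimate over EV was 0.71 ± 0.30 (adjusted p = 0.156). CEBPG, a partner of ATF4, showed the same layout, at 76.6, 81.3 and 79.2 CPM in EV and 145, 149 and 68.6 in S14 in conditioned medium (0.61 ± 0.24, adjusted p = 0.127). NUPR1, a small stress-induced chromatin protein, was estimated at 2.00 ± 0.83 (adjusted p = 0.151, and 0.0358 with the block), from 18.5, 22.3 and 6.52 CPM in EV and 89.4, 93.9 and 6.07 in S14.

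**Figure D2:**
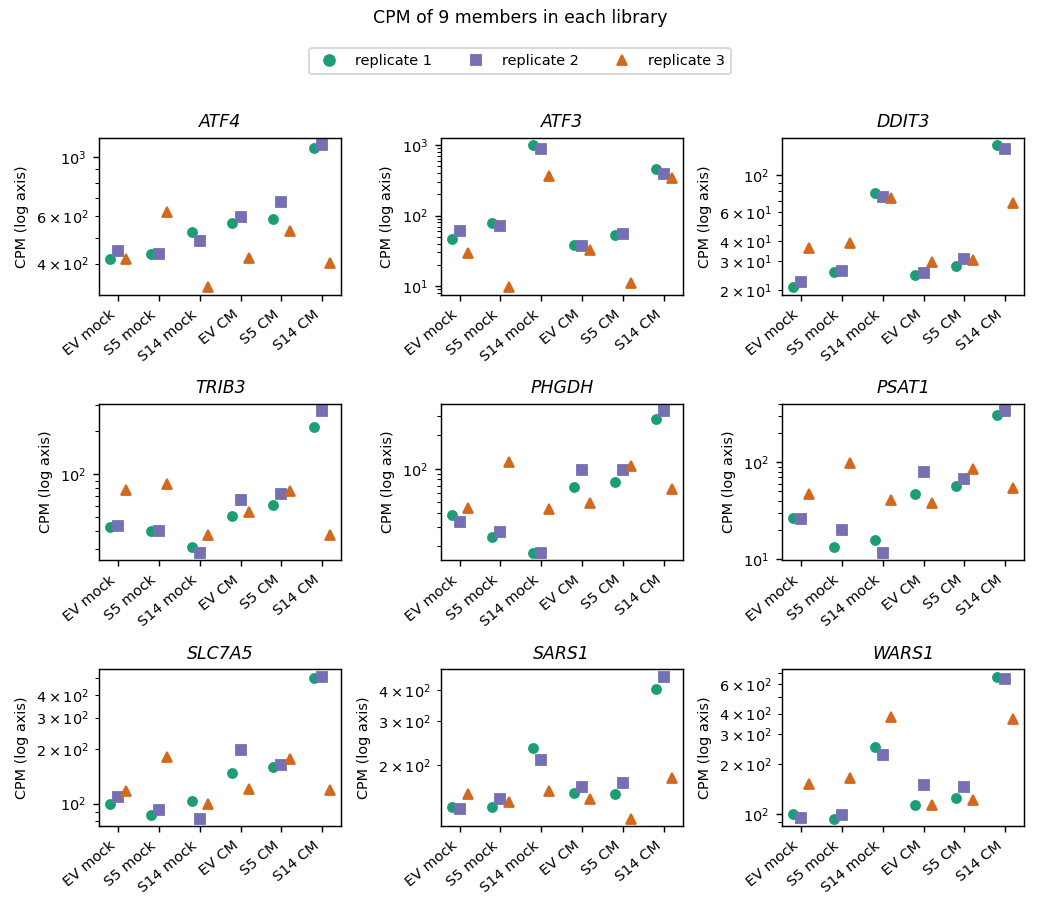
CPM (log axis) of 9 members in each of the 18 libraries, with symbols for replicates 1, 2 and 3 and 1 column for each group. ATF3, DDIT3 and WARS1 are high in all S14 libraries of both media, while for ATF4, TRIB3, PHGDH, PSAT1, SLC7A5 and SARS1 the first and second S14 CM libraries are the highest of all and the third is not.

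Of the 7 stress effectors and feedback genes, TRIB3, SESN2 and PPP1R15A rose in S14 in conditioned medium, and PPP1R15A alone did so in mock medium. PPP1R15A (GADD34), which recruits a phosphatase to eIF2 and so restores translation, was at 71.7, 86.2 and 80.5 CPM in EV mock and 346, 322 and 177 in S14 mock. PPP1R15A stood in conditioned medium at 66.8, 65.4 and 82.8 CPM in EV and 231, 237 and 172 in S14. Its S14 libraries lay above the EV libraries in both media, by 1.82 ± 0.31 (adjusted p = 6.88e-04) and 1.57 ± 0.30 (adjusted p = 0.00308). SESN2, a leucine-binding inhibitor of mTORC1 signalling, was at 13.8, 13.9 and 14.8 CPM in EV mock and 30.1, 25.3 and 22.8 in S14 mock, an estimate of 0.88 ± 0.31 that missed the threshold (adjusted p = 0.0601, and 0.0422 with the block). In conditioned medium it was at 19.8, 24.4 and 15.9 CPM in EV and 86.7, 91.5 and 28.2 in S14, without overlap (1.78 ± 0.32, adjusted p = 0.00174).

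TRIB3, a pseudokinase that feeds back on ATF4, was at 42.7, 43.8 and 77.3 CPM in EV mock and 31.0, 28.2 and 37.5 in S14 mock, so every S14 library lay below every EV library, with an estimate of −0.76 ± 0.49 (adjusted p = 0.299). TRIB3 stood in conditioned medium at 51.5, 66.1 and 54.9 CPM in EV and 212, 275 and 37.5 in S14. The first and second S14 libraries were then the highest and the third the lowest of these 6, and the fold change of 1.60 ± 0.49 passed narrowly (adjusted p = 0.0478). CHAC1, which degrades glutathione, was at 1.32, 1.44 and 5.26 CPM in S14 mock and 59.5, 47.3 and 8.60 in S14 conditioned medium, the largest estimate among the members between media (3.84 ± 0.85, adjusted p = 0.0621). VLDLR, a lipoprotein receptor, and DDIT4, an inhibitor of mTORC1, were estimated at 0.95 ± 0.32 and 1.71 ± 0.57 over EV in conditioned medium (adjusted p = 0.0660 and 0.0661, and 0.0424 and 0.0396 with the block). DDIT4 was at 30.1, 22.0 and 22.1 CPM in EV and 115, 112 and 16.4 in S14 in that medium. VLDLR was at 74.2, 82.6 and 60.5 CPM and 175, 185 and 60.9 CPM. The third S14 library lay below the EV range for DDIT4 and within it for VLDLR, and the others lay above. STC2, a secreted glycoprotein of the stress response, was at 15.3, 20.7 and 5.88 CPM in EV and 64.6, 77.3 and 3.71 in S14 conditioned medium, with the third S14 library the lowest of the 6 (1.80 ± 0.76, adjusted p = 0.157). CHAC1 had an estimate over EV of 1.61 ± 0.76 there and was not called (adjusted p = 0.214).

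Among the serine and asparagine genes, all 4 estimates in mock medium were lower in S14 than in EV (median −0.56) and none was called. In conditioned medium all 4 were higher (median 1.87) and ASNS was called. PHGDH, the first enzyme of serine synthesis, was at 38.3, 33.3 and 44.1 CPM in EV mock and 17.4, 17.6 and 43.4 in S14 mock. In conditioned medium it was at 68.7, 96.6 and 49.1 CPM in EV, 75.8, 98.3 and 106 in S5 and 279.7, 330.4 and 65.3 in S14. The first and second S14 libraries were thus the lowest of the 6 in mock medium and the highest in conditioned medium. The estimate over EV in conditioned medium was 1.66 ± 0.60 (adjusted p = 0.0965).

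PSAT1, the aminotransferase of the second step, was at 26.3, 25.6 and 47.0 CPM in EV mock and 15.9, 11.5 and 40.3 in S14 mock. PSAT1 stood in conditioned medium at 46.4, 80.0 and 37.9 CPM in EV and 305, 339 and 54.1 in S14 (2.09 ± 0.73, adjusted p = 0.0840, and 0.0488 with the block). The third S14 library lay inside the EV range. PSPH, the phosphatase of the last step, had the smallest estimate of the 4, at 13.8, 14.2 and 12.6 CPM in EV and 19.7, 19.4 and 11.0 in S14 (0.30 ± 0.35, adjusted p = 0.684). ASNS was at 0.572, 0.928 and 0.912 CPM in EV mock and 0.732, 0.360 and 0.535 in S14 mock. In conditioned medium it was at 0.994, 1.26 and 0.684 CPM in EV and 8.78, 8.73 and 0.422 in S14, where the third library was the lowest of these 6 (2.60 ± 0.68, adjusted p = 0.0209). ASNS held 592 counts over all libraries and shares 1985 exonic bases on its own strand with ENSG00000284707, which held 1341, so its level here may be incomplete. That neighbouring entry was not called in S14 against EV in either medium (0.29 ± 0.33 in conditioned medium).

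Of the 8 other enzymes, MTHFD2 and CTH rose in S14 in conditioned medium, and none was called in mock medium. MTHFD2, a mitochondrial enzyme of the folate cycle, was at 190.3, 221 and 219 CPM in EV and 560.1, 589 and 273 in S14, without overlap (1.17 ± 0.28, adjusted p = 0.0111). In mock medium it was at 139.8, 149 and 221 CPM and 217, 183 and 267 CPM, where the groups overlapped. CTH, which makes cysteine from cystathionine, was at 1.08, 1.57 and 1.13 CPM in EV and 9.67, 12.5 and 3.04 in S14, also without overlap (2.74 ± 0.63, adjusted p = 0.00942). It lost its call without EV conditioned medium replicate 1. SHMT2, the mitochondrial serine hydroxymethyltransferase, was at 172, 193 and 169 CPM and 311, 325 and 228 CPM, and GPT2, an alanine aminotransferase, at 13.8, 15.3 and 8.94 CPM and 42.1, 45.0 and 16.5 CPM. In both, all S14 libraries lay above all EV libraries, yet they were called only with the block (adjusted p = 0.0572 and 0.0598 without it, 0.0158 and 0.0403 with it). CBS, the enzyme before CTH, was the only member called lower in the fit of all libraries without the block, in S14 against S5 in mock medium, at 7.90, 5.64 and 12.4 CPM in S5 and 3.90, 3.66 and 2.68 in S14 (−1.34 ± 0.45, adjusted p = 0.0448). Its near-identical copy LOC102724560 held 566 counts against 3295 for CBS, so reads may be split between them. ALDH1L2, a mitochondrial folate enzyme, was at 35.9, 61.5 and 18.9 CPM in EV and 162, 189.7 and 18.9 in S14 conditioned medium (1.67 ± 0.59, adjusted p = 0.0878). The proline synthesis genes PYCR1 and ALDH18A1 were estimated at 0.62 ± 0.35 and 0.15 ± 0.38 and were not called; ALDH18A1 was at 10.4, 8.93 and 24.3 CPM in S14, so its first and second libraries lay below the EV libraries (11.5, 12.3 and 15.5 CPM) and its last above them.

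Of the 9 amino acid transporters, 5 rose in S14 in conditioned medium and none was called in mock medium. SLC3A2, the heavy chain of the large neutral amino acid and cystine exchangers, was at 188, 203 and 203 CPM in EV and 474, 456 and 242 in S14, without overlap (0.98 ± 0.22, adjusted p = 0.00874). SLC38A2, the stress-inducible neutral amino acid carrier SNAT2, was at 249, 268 and 248 CPM and 499, 549.6 and 270.1 CPM, with the third S14 library just above the EV range (0.79 ± 0.20, adjusted p = 0.0179). SLC1A5, a glutamine exchanger, was at 217, 249 and 207 CPM and 483, 514 and 242 CPM, and the third S14 library lay within the EV range (0.88 ± 0.26, adjusted p = 0.0416).

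SLC6A9, a glycine transporter, was at 0.389, 1.72 and 0.282 CPM in EV and 6.42, 5.62 and 0.928 in S14 (2.45 ± 0.70, adjusted p = 0.0338). It is a low gene, with 425 counts over all 18 libraries, and its groups overlapped. SLC38A1, a glutamine carrier, was at 55.9, 70.5 and 59.8 CPM and 177, 165 and 52.7 CPM, with the third S14 library the lowest of the 6 (1.08 ± 0.33, adjusted p = 0.0437). SLC7A5 (LAT1), the light chain that pairs with SLC3A2, was at 104, 82.4 and 98.9 CPM in S14 mock and 497, 506 and 119 in S14 conditioned medium, against 147, 199 and 119.7 CPM in EV conditioned medium. Its estimate over EV of 1.27 ± 0.40 missed the threshold (adjusted p = 0.0524). SLC7A1, SLC1A4 and SLC43A1 had estimates of 0.71, 0.30 and 0.11 and were not called. Of 21 other genes tested from families of amino acid and related carriers, 6 rose and 1 fell (median 0.24). SLC7A8, a neutral amino acid exchanger, was the gene that fell (−1.90 ± 0.25, adjusted p = 1.31e-04). SLC43A3 rose by 0.53 ± 0.10 (adjusted p = 0.00269) and SLC1A2, a glutamate carrier, by 4.13 ± 0.73 (adjusted p = 0.00169). SLC1A2 was a low gene, at 0.173, 0.101 and 0.322 CPM in EV and 2.07, 1.00 and 7.80 in S14 conditioned medium.

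Of the 13 tRNA genes, 9 rose in S14 in conditioned medium: the synthetases for tryptophan (WARS1), glycine (GARS1), serine (SARS1), glutamate and proline (EPRS1), isoleucine (IARS1), cysteine (CARS1), tyrosine (YARS1) and leucine (LARS1), and the exporter XPOT. WARS1 alone was called in mock medium. It was at 100.4, 95.0 and 151 CPM in EV mock and 252, 226 and 380.1 in S14 mock. WARS1 stood in conditioned medium at 113, 149 and 114 CPM in EV, 126, 145 and 121 in S5 and 666, 644 and 369 in S14. All S14 libraries lay above all others of their medium, by 1.31 ± 0.28 over EV in mock (adjusted p = 0.00385) and 2.16 ± 0.29 in conditioned medium (adjusted p = 1.64e-04).

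GARS1 was at 74.2, 99.6 and 68.1 CPM in EV and 219, 238 and 106 in S14 conditioned medium (1.22 ± 0.26, adjusted p = 0.00573), SARS1 at 154, 163 and 146 CPM and 405, 455 and 176 CPM (1.17 ± 0.26, adjusted p = 0.00730). IARS1 was at 110.4, 143 and 135 CPM and 332, 384 and 184 CPM (1.21 ± 0.29, adjusted p = 0.0133). In all 3 the third S14 library was the lowest of its group but still above the EV libraries. In mock medium GARS1, SARS1 and IARS1 had estimates of 0.40, 0.51 and 0.43 and were not called. LARS1 was at 103, 97.1 and 134 CPM in EV mock and 146, 132 and 156 in S14 mock, which was not called (0.38 ± 0.20, adjusted p = 0.201). AARS1, the alanine enzyme, was at 212, 198 and 179.9 CPM in S14 mock and 598, 674 and 229.8 in S14 conditioned medium; over EV in that medium it was estimated at 0.87 ± 0.29 (adjusted p = 0.0669, and 0.0405 with the block). The other called genes had smaller fold changes, of 0.78 ± 0.21 for EPRS1, 1.04 ± 0.31 for CARS1, 0.78 ± 0.23 for YARS1, 0.77 ± 0.20 for LARS1 and 0.90 ± 0.27 for XPOT (adjusted p = 0.0178 to 0.0434). MARS1, NARS1 and TARS1, for methionine, asparagine and threonine, had estimates of 0.42, 0.55 and 0.43 and were not called.

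By the authors' deposited TPM, which corrects for transcript length, the synthetase members differed widely in level: in EV mock the means ran from 12.4 for CARS1 to 174 for NARS1. In S14 conditioned medium they ran from 25.6 for CARS1 to 324 for AARS1.

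Synthetases outside the member list were described beside them. Of 11 other cytosolic synthetase and scaffold genes, 0 were called in S14 against EV in conditioned medium (median 0.02), and of 17 mitochondrial synthetase genes 0 were called (median −0.10). QARS1 (glutamine), HARS1 (histidine) and the scaffold gene EEF1E1 had the smallest p among the cytosolic genes, with estimates of −0.24, 0.23 and 0.64. In mock medium 2 of the 11 rose and 1 fell (median 0.47), against 1 of the 13 members (median 0.33). RARS1 (arginine) rose by 0.73 ± 0.23 and QARS1 fell by 0.61 ± 0.14 there (adjusted p = 0.0310 and 0.00544). The lists were drawn up with earlier results known, and the difference between them was not tested. Of 15 genes for eIF2, its kinases and their regulators, its exchange factor and a phosphatase subunit (PPP1R15B), 0 were called in conditioned medium (median 0.07) and 3 rose in mock medium, EIF2B2 and EIF2B4 among them (0.68 ± 0.18 and 0.50 ± 0.14).

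**Figure D3:**
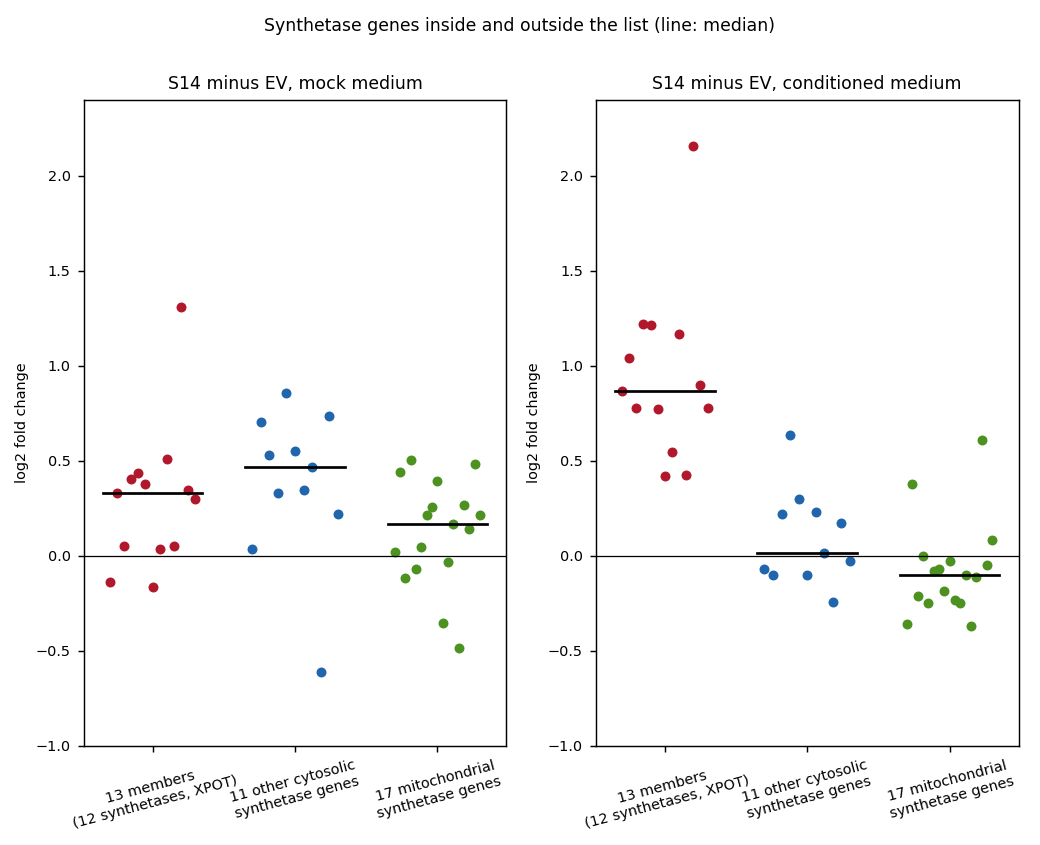
Log2 fold change of S14 over EV in mock (left) and conditioned medium (right) for the 13 tRNA members, 11 other cytosolic and 17 mitochondrial synthetase genes, each point a gene and each line a median. In conditioned medium the members' median is 0.87 and the others' are 0.02 and −0.10; in mock medium the 3 medians are 0.33, 0.47 and 0.17.

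Against the S5 line the S14 line gave a similar list. In conditioned medium 20 of 48 members rose and none fell (13.8% of all genes called, 8.90% higher and 4.88% lower), and in mock medium 6 rose and 1 fell (21.5% called, 11.4% higher and 10.0% lower). With the block 25 members were called in conditioned medium, where 26.6% of all genes were. Both sets of comparisons use the same S14 libraries, so they are not independent. In conditioned medium 19 members were called against both EV and S5. TRIB3, SLC1A5, YARS1 and XPOT were called against EV alone, with estimates over S5 of 1.32, 0.81, 0.67 and 0.75, and ATF5 against S5 alone. Within replicate numbers, the median over the 48 members was 1.42, 1.39 and −0.13 for replicates 1, 2 and 3. Without S14 conditioned medium replicate 3 the count was 37, and without its replicates 1 and 2 it was 12 and 10. Without S5 conditioned medium replicates 1 and 2 it was 12 and 13. Over all genes the count ran from 1690 without S5 conditioned medium replicate 2 to 2540 without S14 conditioned medium replicate 3. CTH had the largest estimate (3.66 ± 0.67, adjusted p = 0.00181). Between S5 and EV, 0 members were called in either medium, with 0 at an unadjusted p under 0.05 and 0 by DESeq2, where 0 of all genes were called by edgeR and 5 and 10 by DESeq2. With the block 0 members were called in either, where 0.0168% and 0 of all genes were. Replicate 3 again differed from the others. In mock medium, S5 replicates 1, 2 and 3 lay above all 3 EV libraries for 8, 4 and 37 of the 48 members, against 27.5%, 24.3% and 35.3% of all genes, and the median differences within a number were −0.10, −0.02 and 0.40. In conditioned medium the counts were 7, 13 and 22, against 25.3%, 29.6% and 32.1% of all genes, and the medians 0.06, −0.08 and 0.36.

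**Figure D4:**
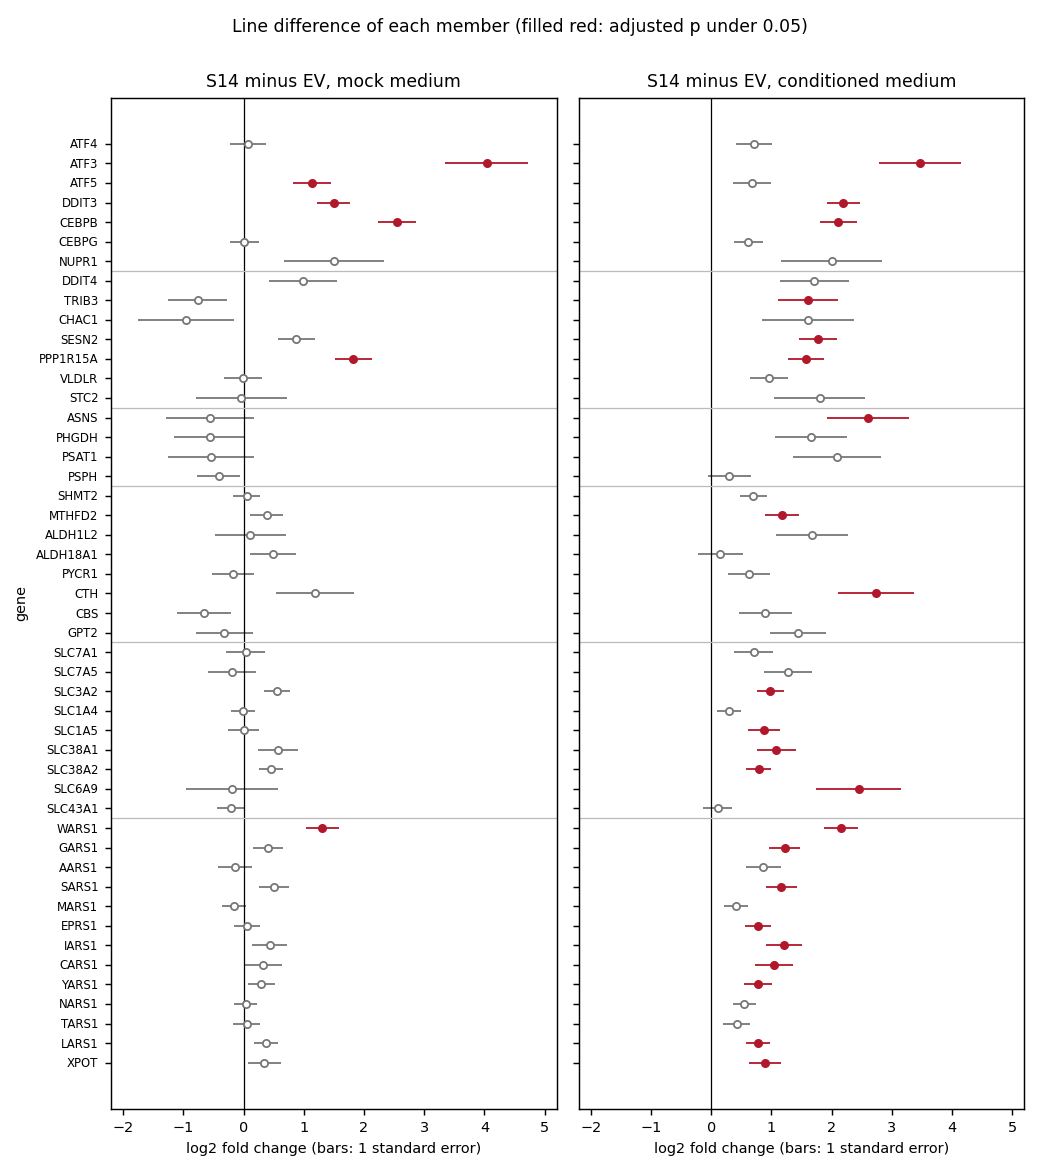
Log2 fold change of S14 over EV for the 48 members, by role from top to bottom, in mock (left) and conditioned medium (right), with bars of 1 standard error and filled points for adjusted p under 0.05. In mock medium 6 points are filled and the estimates lie on both sides of 0; in conditioned medium 23 are filled and all 48 lie above 0.

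To determine whether conditioned medium itself moved the members, it was compared with mock medium within each line. In S14, 43 of 48 estimates were higher in conditioned medium (median 0.94), led by the serine and asparagine genes (median 3.24), and ATF3, ATF5, CEBPB, PPP1R15A and ALDH18A1 were lower. No member passed at an adjusted p under 0.05 (0.0504% of all genes did), although 41 had an unadjusted p under 0.05 and the smallest adjusted p was 0.0605. With the replicate number as a block, 29 members rose and ATF5 fell, where 11.0% of all genes were called. DESeq2 called 26 members and 897 of all genes. Without S14 conditioned medium replicate 3, 38 members were called, and without S14 mock replicate 3, 21. Over all genes the omissions gave 0 to 2043 calls, the most without S14 mock replicate 3.

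The members with the smallest p in this comparison were PHGDH (3.11 ± 0.64) and SLC7A5 (1.98 ± 0.41), both with adjusted p = 0.0605, and 0.0175 and 0.0207 with the block. PSAT1, ASNS, TRIB3 and GPT2 had estimates of 3.37, 3.43, 2.44 and 2.23. All 3 libraries of conditioned medium lay above all 3 of mock medium for 18 of the 48 members, where 8.44% of all genes did so. The paired differences again split by number, with a median over the members of 1.09, 1.39 and 0.11 for replicates 1, 2 and 3. For the serine and asparagine genes these were 3.71, 4.25 and 0.23.

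In EV, 0 members passed (0.00560% of all genes did, and 0.0112% with the block, which called 0 members), 0 had an unadjusted p under 0.05 and DESeq2 called 0. The members still leaned upwards, and for 12 of the 48 all 3 libraries of conditioned medium lay above those of mock medium, against 4.55% of all genes; in S5 this held for 2 of the 48, against 3.03% of all genes. The 12 in EV were CHAC1, SESN2, PHGDH, PSPH, SHMT2, CTH, CBS, SLC7A5, SLC38A2, GARS1, YARS1 and TARS1. The paired medians over the 48 members were 0.25, 0.48 and 0.01. In S5, 0 members passed (0.00560% of all genes did), 0 had an unadjusted p under 0.05, DESeq2 called 0, and the paired medians were 0.42, 0.46 and −0.12. With replicates 1 and 2 alone, 22 members were called in EV (3.17% of all genes), 24 in S5 (7.06%) and 47 in S14 (45.2%), of which 20, 21 and 42 rose and 2, 3 and 5 fell.

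The difference in medium response between lines called 0 members by edgeR and 0 by DESeq2 in S14 minus EV, S14 minus S5 and S5 minus EV, where 0 of all genes were called by edgeR and 4, 4 and 0 by DESeq2. At an unadjusted p under 0.05 there were 15, 19 and 0 members. TRIB3 had the smallest p for S14 minus EV (2.36 ± 0.69, unadjusted p = 0.00371). With replicates 1 and 2 alone 43, 43 and 0 members were called, where 24.3%, 21.9% and 0 of all genes were; the response was larger in S14 for 39 and 40 of them and smaller for 4 and 3. A larger response of the members in S14 than in EV or S5 was therefore not called over all 3 replicates.

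**Figure D5:**
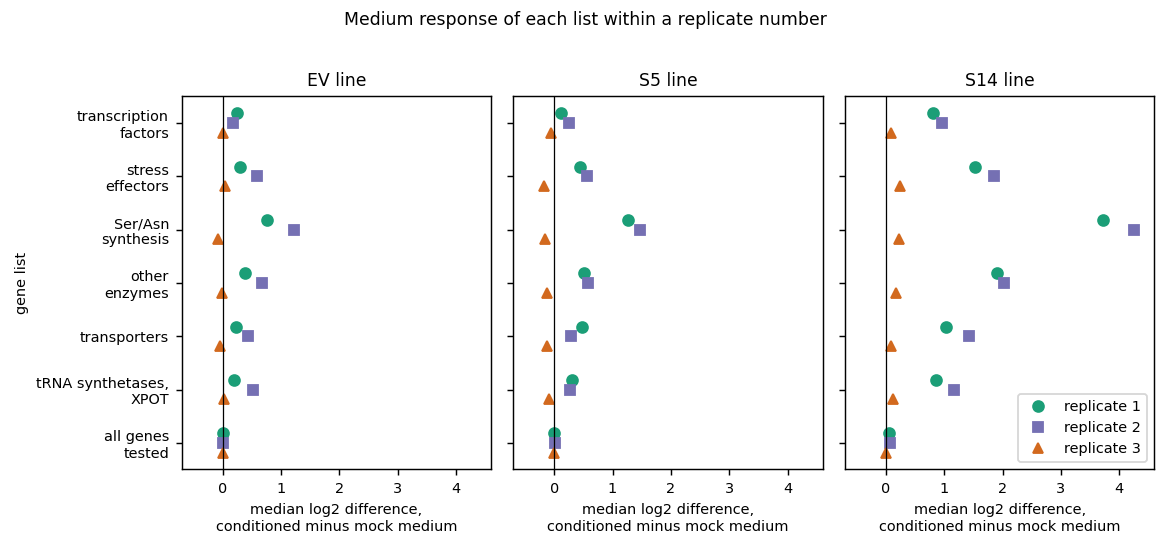
Median log2 difference between conditioned and mock medium within a replicate number (symbols), for the 6 role lists and all genes tested, in the EV, S5 and S14 lines. In S14 the serine and asparagine list stands at 3.71 and 4.25 for replicates 1 and 2 and at 0.23 for replicate 3, while all genes tested lie near 0.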

How the data were processed

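Per the labels' protocols, RNA was extracted with NucleoZol and 18 stranded mRNA libraries were built (TruSeq). The deposited table holds read counts per gene and TPM, made by the authors with HISAT2 on GRCh38, per the submitters' processing notes; the counting program, annotation and strand setting were not given in the sources used here. Depth was 15.0 to 26.05 M counts, and TPM was used for levels between genes only. Counts were filtered by group (filterByExpr), scaled with TMM and fitted over all 18 libraries with edgeR 4.0.16 (R 4.3.3), with 1 mean per group, robust quasi-likelihood tests, 12 comparisons and Benjamini-Hochberg adjustment over 17851 genes. Fold changes are log2 with 1 standard error. The fit recovered changed genes in counts simulated without a replicate effect. In these data replicate 3 stood apart, so the simulation cannot show how the fit behaves there. Overlaps and coordinates of genes come from GENCODE 29, and promoters from RefSeq (GRCh38.p14).

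Same-numbered libraries deviated together from their group means (correlation 0.155 to 0.794 over 45 pairs). The numbers were therefore taken to pair the samples in the block, a pairing not stated in the labels. No correlation was computed between libraries of different numbers, and replicate 3 stood apart in every group. The correlations of same-numbered libraries thus cannot show that replicates 1 and 2 pair by number. Alternatives were the replicate block, DESeq2 1.42.0, other scaling factors, no filter, only the groups compared, replicates 1 and 2 alone, and each library left out in turn. Members, lists, tests and alternatives were chosen with earlier results of these data known. Within each role list, library values are given for at most 4 members, by smallest p, in S14 against EV in conditioned medium, at most 3 in mock medium and at most 2 between media. Library values of STC2, NUPR1, ALDH1L2 and ALDH18A1 were added after their values were seen.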

Additional observations from a re-analysis of the deposited data

How the results depend on the processing

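None of the 56 member calls between lines reversed under the alternatives run. None was lost with DESeq2, its size factors in edgeR, the replicate block or replicates 1 and 2 alone, 7 were lost without the filter, 7 with upper-quartile factors and 32 with only the groups compared. The calls kept under every alternative in all 4 comparisons of S14 with EV or S5 were ATF3, CEBPB, DDIT3, PPP1R15A and WARS1. With only the groups compared, 9 members were called for S14 against EV and 7 for S14 against S5 in conditioned medium, with fewer libraries to estimate the spread. No share of all genes is given for that setting, so these counts cannot be set against genes in general.

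With the replicate block, S14 against EV gave 7 members in mock and 32 in conditioned medium, where 37.4% and 23.6% of all genes were called. S14 against S5 gave 9 and 25, where 38.5% and 26.6% were. Conditioned against mock medium in S14 gave 30 in place of 0, where 11.0% were. The block ended no call. For conditioned against mock medium in S14, DESeq2 called 26 members and 897 of all genes, and the fit without a filter called 1 member. The count over all genes is not given for the fit without a filter. With replicates 1 and 2 alone, S14 against EV gave 31 and 47 (8 and 1 of them lower), where 55.6% and 43.9% of all genes were called. S14 against S5 gave 32 and 46 (7 and 1 lower), where 54.8% and 42.5% were. S5 against EV gave 3 and 1 (mock and conditioned medium), where 1.97% and 2.18% were. Conditioned against mock medium gave 22, 24 and 47 in EV, S5 and S14, where 3.17%, 7.06% and 45.2% were. The differences in response gave 43 (S14 minus EV) and 43 (S14 minus S5), where 24.3% and 21.9% were. The cause was not tested.

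Leaving out 1 library at a time gave 5 to 7 and 9 to 40 members for S14 against EV in mock and conditioned medium. Over all genes this was 2264 to 4939 and 1164 to 2114. S14 against S5 gave 6 to 8 and 10 to 37 members, and 2514 to 5242 and 1690 to 2540 genes. Conditioned against mock medium in S14 gave 0 to 38 members and 0 to 2043 genes. The differences S14 minus EV and S14 minus S5 gave 0 to 4 and 0 to 2 members, and 0 to 107 and 0 to 45 genes. The other 5 comparisons gave 0 members. The shorter motif TGATGNAA matched the same number of members, 16. Depth limits ASNS, CTH and SLC6A9 most, which lay at or near 1 CPM outside S14 conditioned medium.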

Other observations

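Enzymes of serine, glycine and glutamine use outside the member list were described in the same comparisons. Of 22 cytosolic one-carbon, glycine and glutamine genes tested, 2 rose and 1 fell in S14 against EV in mock medium (median −0.15), and 1 rose in conditioned medium (median 0.02). SDS, which breaks serine down to pyruvate, was at 0.763, 0.511 and 0.836 CPM in EV mock and 37.1, 28.3 and 180.4 CPM in S14 mock (replicates 1, 2 and 3), and at 0.778, 0.960 and 0.604 CPM and 66.3, 44.5 and 117.6 CPM in conditioned medium. The third S14 library was the highest of its group in both media, and all S14 libraries lay above all EV libraries. Its log2 fold change was 6.85 ± 0.72 in mock and 6.61 ± 0.71 in conditioned medium, and it was called in both; with replicates 1 and 2 alone it was 5.67 ± 0.26 and 5.95 ± 0.24. GLUL, glutamine synthetase, rose in S14 in mock medium (1.44 ± 0.29), from 481, 536 and 539 CPM in EV to 1682, 1938 and 609 CPM in S14, so that the third S14 library lay only a little above EV. It was estimated at 0.05 ± 0.28 in conditioned medium. SHMT1, the cytosolic serine hydroxymethyltransferase, fell in mock medium (−0.67 ± 0.22) and was not called in conditioned medium (−0.41 ± 0.22). These genes were named by the smallest p within their list.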
